A study of Arabidopsis thaliana with 30 samples.

Results

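Messenger RNA of ski2 dcl4 seedlings was compared between heat and control across all genes. The members were the 6 ski2 dcl4 libraries among the 30 of the series, taken by genotype and treatment from the labels: 3 ski2 dcl4 heat libraries and 3 ski2 dcl4 control libraries. All plants were Arabidopsis thaliana seedlings 7 days old, grown at 22 °C on agar with diluted Murashige and Skoog medium. Heat was 85 min at 44 °C, given to sealed plates in a water bath, and control seedlings had no heat. Both groups carry ski2 and dcl4. The labels name no alleles and do not say whether the 3 libraries of a group came from separate plates, and the spread behind each p-value is that between libraries and may be technical. Heat and control libraries of ski2 dcl4 dcl2 and of the wild type Col-0, 3 of each, were used where the heat effect was compared between genotypes. Libraries of the other genotypes, smxl4 smxl5 and smxl6 smxl7 smxl8, entered the filter on low values and the shared estimate of spread. Their heat effects were not compared. By its title, the series is about how SMXL4/5 and HsfA2 regulate each other, and about growth set against thermotolerance.

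SKI2 is an RNA helicase that feeds messenger RNA into the cytoplasmic exosome, which degrades it from the 3′ end. DCL4 is the Dicer-like enzyme that makes trans-acting siRNAs from double-stranded RNA built by RDR6. Where both are missing, RDR6 can copy messenger RNAs that escape decay, and DCL2 cuts the copies into siRNAs of 22 nucleotides, with nitrate reductase and SMXL4/5 messages among the known sources. Heat is read in plants by heat shock factors, which bind inverted GAA repeats in promoters and switch on chaperones that hold or refold proteins. HSFA2 is a heat-induced factor that prolongs this program.

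The labels were checked first on the mutated genes. SKI2 (AT3G46960) stood at 2.13, 2.70 and 2.24 FPKM, a fragment number divided by transcript length and by sequencing depth, in ski2 dcl4 heat libraries, against 3.24, 3.25 and 3.56 FPKM in ski2 dcl4 control libraries. Col-0 held 5.91, 5.89 and 6.19 FPKM after heat and 6.23, 6.40 and 6.61 FPKM in control, so all 6 ski2 dcl4 libraries were below all 6 of Col-0. SKI2 fell with heat by 0.38 on the log2(FPKM + 1) scale (SE 0.06, limma adjusted p 2.7e-05), as did DCL4 (AT5G20320), at 2.45, 2.46 and 2.13 FPKM in heat and 3.19, 3.54 and 3.60 FPKM in control (−0.41, SE 0.09, adjusted p 4.4e-04). DCL4 in ski2 dcl4 control libraries overlapped Col-0 control libraries, at 3.07 to 3.71 FPKM, so its level does not check that label. DCL2 (AT3G03300), intact in ski2 dcl4, was at 6.18 to 6.74 FPKM in heat and 6.35 to 6.83 FPKM in control (−0.03, adjusted p 0.79), and in ski2 dcl4 dcl2 at 2.58 to 3.36 FPKM in heat and 2.90 to 3.68 FPKM in control.

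The ski2 dcl4 libraries summed to 935760 to 943998 FPKM in heat and 735524 to 739108 FPKM in control, without overlap. A median of about 18.6 M fragments stood behind the heat libraries and 22.9 M behind the control libraries, as estimated from the value that 1 fragment takes in genes with few of them. Correlations between libraries of a group were 0.977 to 0.982 in heat and 0.973 to 0.982 in control. Mitochondrial transcripts summed to 859 to 1173 FPKM in heat and 15.6 to 19.2 FPKM in control. The part of these differences in the results was not tested. Control library 2 of ski2 dcl4 stood apart from control libraries 1 and 3 in early stress genes, as the CBF2 values further on show, and values without it are given beside those that it moves most. Since it was singled out by its values in such genes, larger changes and added calls without it follow in part from that choice.

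Heat changed 11965 of the 21531 genes tested in ski2 dcl4 (55.6%, limma, Benjamini-Hochberg adjusted p under 0.05). Of these, 6881 rose (32.0% of genes tested) and 5084 fell (23.61%). The split depends on scaling: after upper-quartile rescaling, which moved the median log2 change of all genes by −0.13, 4780 rose and 6641 fell. The median change over all genes was 0.06 as deposited. Changes of at least 1 on the log2 scale were found for 422 genes that rose (1.96%) and 971 that fell (4.51%). The counts of each gene list below are read beside 32.0% for rises and 23.61% for falls, and the plot of all lists shows every member.

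**Figure D1:**
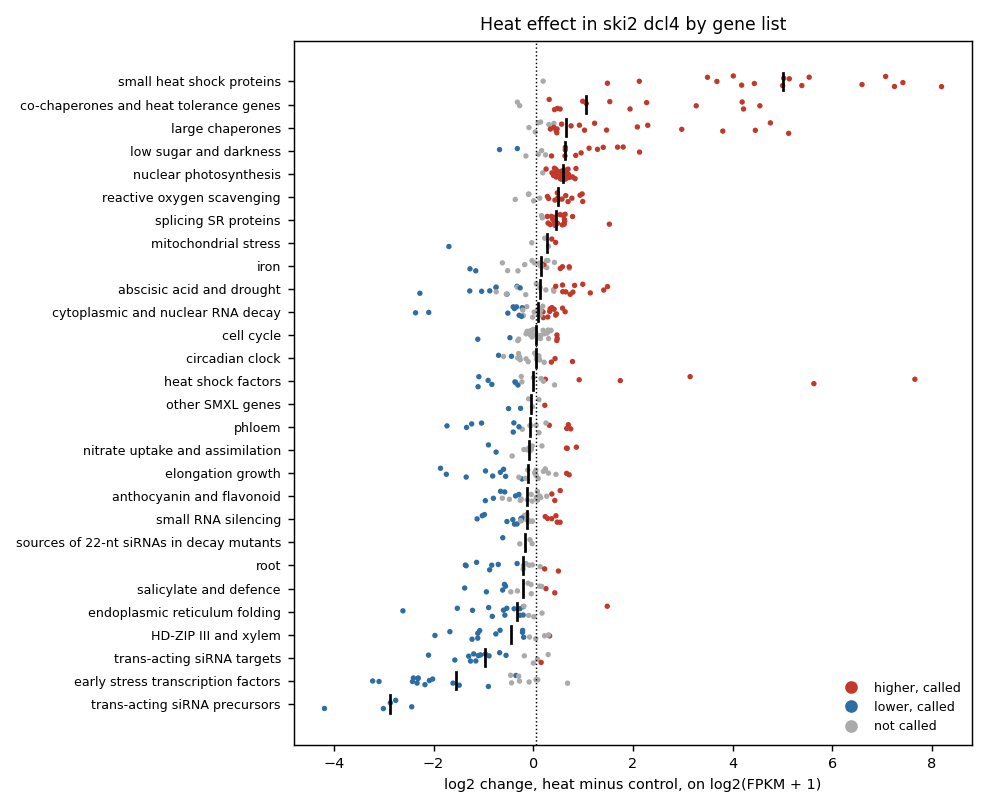
Log2 change of each tested gene (heat minus control, on log2(FPKM + 1)) in ski2 dcl4, by gene list; red points rose, blue points fell and grey points were not called, black bars are list medians and the dotted line is the median of all genes tested, 0.06. Small heat shock proteins lie furthest to the right with a median of 5.01, and trans-acting siRNA precursors furthest to the left with a median of −2.87.

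Heat shock factors had no common direction, with the largest rises in HSFA2 and HSFA7A. Of 21 factors, 19 passed the filter on low values, 6 rose and 7 fell, and the median change was 0.00. HSFA2 (AT2G26150) stood at 401, 360 and 331 FPKM in heat, against 0.755, 0.581 and 1.12 FPKM in control. Every heat library was far above every control library, and the log2 change was 7.66 (SE 0.24, adjusted p 3.0e-17). HSFA7A (AT3G51910), a heat-induced factor of the same class, was at 288, 235 and 235 FPKM in heat and 4.68, 3.99 and 3.67 FPKM in control (5.63, SE 0.21, adjusted p 1.4e-15). HSFA7B averaged 8.12 ± 1.9 FPKM in heat and 0.0156 ± 0.027 FPKM in control (SD, n = 3 each; log2 change 3.15). HSFB1 (AT4G36990), a class B factor that acts with or against class A members, rose to 118 ± 4.6 FPKM in heat, against 34.7 ± 6.3 FPKM in control (1.75). Constitutive factors that start the response moved little: HSFA1B rose by 0.24, while HSFA1A fell by 0.36 and HSFA1D fell by 0.31. Their calls were lost without control library 2 for HSFA1B and HSFA1A (adjusted p 0.056 and 0.069) and without heat library 2 for HSFA1A and HSFA1D (0.068 and 0.052). HSFA4A fell by 1.11 and HSFC1 fell by 1.09, changes that were −1.57 and −1.51 without control library 2 and were not called with only the compared libraries in the fit (adjusted p 0.063 and 0.077).

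Promoters of HSFA2 and HSFA7A, the factors with the largest rises, hold the letters of the heat shock element, as do some promoters of other heat shock genes. The 250 bases before the start of HSFA2 (chr2:11135374-11135623, plus strand), HSFA7A (chr3:19264891-19265140, plus strand) and the small heat shock protein gene HSP17.6C (chr1:19980049-19980298, plus strand) are printed 5′ to 3′ from RefSeq TAIR10.1, with GAANNTTC or TTCNNGAA and their overlapping 3-unit forms in capitals, since these genes rose together.
HSFA2: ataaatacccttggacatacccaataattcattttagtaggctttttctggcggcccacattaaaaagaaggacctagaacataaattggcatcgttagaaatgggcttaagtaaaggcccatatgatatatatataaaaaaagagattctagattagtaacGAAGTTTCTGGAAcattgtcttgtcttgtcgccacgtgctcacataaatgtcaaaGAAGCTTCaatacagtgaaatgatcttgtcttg
HSFA7A: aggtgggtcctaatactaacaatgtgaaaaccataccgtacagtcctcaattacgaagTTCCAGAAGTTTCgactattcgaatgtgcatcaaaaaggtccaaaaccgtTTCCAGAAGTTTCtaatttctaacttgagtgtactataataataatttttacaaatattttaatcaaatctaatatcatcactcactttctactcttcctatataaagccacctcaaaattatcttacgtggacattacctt
HSP17.6C: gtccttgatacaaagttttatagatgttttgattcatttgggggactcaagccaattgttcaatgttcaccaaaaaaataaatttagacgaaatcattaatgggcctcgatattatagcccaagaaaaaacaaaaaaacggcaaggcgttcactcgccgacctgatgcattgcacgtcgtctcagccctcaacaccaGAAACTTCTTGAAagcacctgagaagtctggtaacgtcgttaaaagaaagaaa
The 3-unit forms, in which either 2-unit form is followed after 2 further bases by 1 more inverted unit, were searched on both strands and occurred in the same window of 7 of the 100 genes with the largest called rises (7.0%), in 0 of the 100 with the largest called falls and in 93 of 21406 genes with such a window (0.434%). The 7 were HSFA2, HSP17.6C, HSFA7A, HSP17.4, DREB2A, HSFA7B and AT1G71000. The 2-unit forms GAANNTTC or TTCNNGAA, which the 3-unit forms contain, were in 27.0%, 19.0% and 16.0% of these sets. CACGTG, the G-box of abscisic acid and light responses, was in 8.0%, 6.0% and 7.11%. CCGAC, the core of the drought and cold element, was in 16.0%, 13.0% and 12.9% on either strand, and AAAATATCT, the evening element of clock genes, in 2.0%, 3.0% and 2.36%. Among list members, 7 of 18 small heat shock protein genes held a 2-unit form and 2 a 3-unit form, against 2 of 24 large chaperone genes with a 2-unit form and 0 with a 3-unit form. The windows of HSP17.6A (AT1G59860) and HSFB1 held neither. A match describes these letters and is not a measured binding site.

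Small heat shock proteins, which hold unfolding proteins in a refoldable state, rose most. Of 18 members, all tested, 17 rose, each by at least 1 on the log2 scale, with a median of 5.01 beside 0.06 over all genes. HSP17.6A (AT1G59860) stood at 1023, 890 and 877 FPKM in heat, against 2.13, 1.61 and 2.92 FPKM in control, and its log2 change of 8.19 (SE 0.21, adjusted p 7.1e-19) was the largest of all genes that met the rule for naming. HSP17.8 was at 592, 478 and 482 FPKM in heat and 3.28, 2.33 and 2.98 FPKM in control (7.07, SE 0.34). The class II genes HSP17.6II and AT5G12030 rose by 7.25 and 7.42, and both were near 1 FPKM or lower in control. Organelle members rose as well: mitochondrial HSP23.6 averaged 73.8 ± 9.9 FPKM in heat and 0.781 ± 0.17 FPKM in control (5.39), HSP22.0 of the endoplasmic reticulum 150 FPKM in heat and 3.72 FPKM in control (5.00), and plastid HSP21 19.2 FPKM in heat and 0.799 FPKM in control (3.50). HSP14.7 (AT5G47600) was the member that did not pass, at 4.47, 2.54 and 1.58 FPKM in heat and 2.82, 1.80 and 2.09 FPKM in control. Class I genes are alike in sequence, and how reads shared between copies were assigned is not given in the sources used here. The median in Col-0 was 5.08, and no small heat shock protein differed in heat effect from Col-0 or from ski2 dcl4 dcl2.

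Large chaperones rose too, most of all those of the cytosol. Of 24 members, 18 rose and 0 fell, with a median of 0.66. The count of rises was 13 after upper-quartile rescaling or without control library 1, 14 without heat library 1 or 2, and 20 without heat library 3. HSP101 (AT1G74310), the disaggregase required for survival of severe heat, stood at 98.5, 76.3 and 78.0 FPKM in heat, against 3.61, 2.37 and 2.70 FPKM in control. The groups were far apart, and the log2 change was 4.46 (SE 0.35, adjusted p 4.6e-10). HSP90.1 averaged 357 ± 39 FPKM in heat and 12.4 ± 2.6 FPKM in control (4.76), and HSP70B 110 ± 17 FPKM in heat and 2.18 ± 0.40 FPKM in control (5.12). HSP70 (AT3G12580) was at 649, 579 and 640 FPKM in heat and 63.5, 25.2 and 51.7 FPKM in control, with control library 2 the lowest. Its change was 3.80 (SE 0.27), and in Col-0 it was 5.12. This difference was not called (−1.32, SE 0.39, adjusted p 0.13), but it was called without control library 2. Chaperonins of plastids and mitochondria moved little, such as CPN60A at 166 FPKM in heat and 111 FPKM in control (0.57), a call lost without heat library 2 or control library 1, and HSP90.5 of plastids, at 61.2 FPKM in heat and 59.6 FPKM in control, was not called.

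Co-chaperones and other heat tolerance genes followed. Of 15, 13 rose and 0 fell (median 1.06), and after upper-quartile rescaling 13 rose and 2 fell. MBF1C (AT3G24500), a transcriptional coactivator needed for tolerance of heat, was at 773, 709 and 665 FPKM in heat and 41.5, 21.8 and 28.6 FPKM in control (4.55, SE 0.24, adjusted p 6.1e-13). The HSP70-binding protein gene BAG6 rose by 4.22 and the HSP90 co-chaperone gene HOP3 rose by 4.19. DREB2A, a drought and heat factor that drives HSFA3, was at 212, 182 and 180 FPKM in heat and 29.7, 8.88 and 24.9 FPKM in control, again with control library 2 lowest (3.27, SE 0.33). Without that library the DREB2A change was 2.76, and its difference from ski2 dcl4 dcl2 was called (−1.71, adjusted p 0.026). APX2 (AT3G09640), a cytosolic ascorbate peroxidase gene bound by HSFA2, stood at 4.71, 3.79 and 9.04 FPKM in heat and 2.67, 2.26 and 1.91 FPKM in control, and rose (0.99, SE 0.17, adjusted p 4.1e-05). In Col-0 it was at 0.147 to 0.240 FPKM in heat and 0.119 to 0.309 FPKM in control, and in ski2 dcl4 dcl2 at 0.0703 to 0.141 FPKM in heat and 0.153 to 0.228 FPKM in control. The differences of its heat effect were 0.99 from Col-0 (adjusted p 0.078) and 1.08 from ski2 dcl4 dcl2 (adjusted p 0.075), neither called. The APX2 difference from ski2 dcl4 dcl2 was called without control library 2 (1.08, adjusted p 0.0475), and both APX2 differences were called without heat library 2 (adjusted p 0.011 from ski2 dcl4 dcl2 and 0.018 from Col-0).

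**Figure D2:**
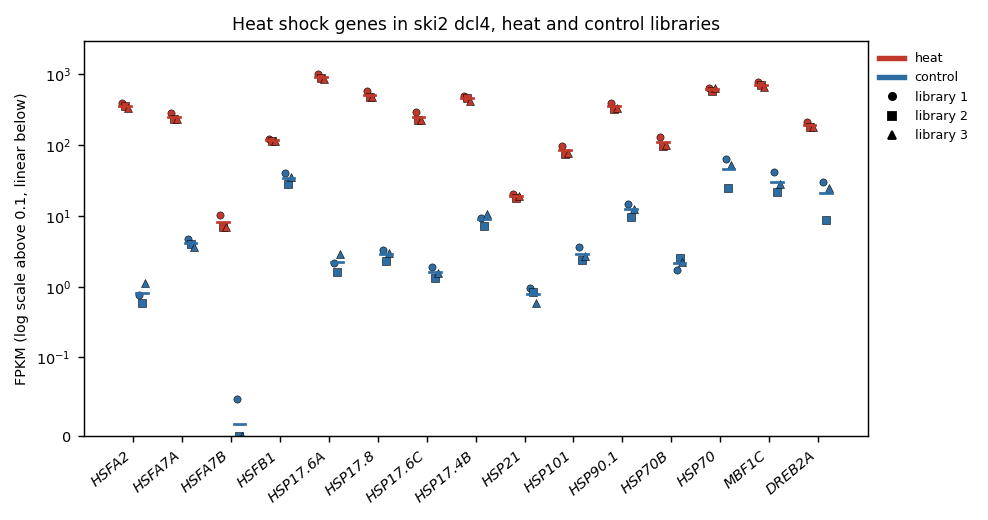
FPKM of 15 heat shock genes in each ski2 dcl4 library (log scale above 0.1, linear below), with heat in red left of control in blue, symbols for libraries 1 to 3 and bars for means. Heat libraries lie above control libraries for every gene shown; HSFA2 was at 331 to 401 FPKM in heat and 0.581 to 1.12 FPKM in control, and control library 2 is lowest for HSP70 and DREB2A.

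Folding genes of the endoplasmic reticulum went the other way. Of 19 members, 18 were tested, 1 rose and 13 fell (median −0.33). CRT1a (AT1G56340), a calreticulin that binds calcium and nascent glycoproteins, stood at 19.8, 20.96 and 21.1 FPKM in heat, against 124, 135 and 136 FPKM in control. The groups were separate, with a log2 change of −2.62 (SE 0.10, adjusted p 8.4e-16). The protein disulfide isomerase gene UNE5 fell to 33.0 ± 2.6 FPKM in heat, against 96.7 ± 2.2 FPKM in control (−1.52), and P58IPK fell by 1.22. ERDJ3A, a J-domain protein of the reticulum, was the exception, at 6.62 ± 0.67 FPKM in heat and 1.72 ± 0.23 FPKM in control (1.48). BIP1 and BIP2, the luminal HSP70 genes, fell by 0.27 and 0.38, with the BIP1 call lost without heat library 3 (adjusted p 0.052) or control library 3 (0.062). None of the 18 differed in heat effect from Col-0 or ski2 dcl4 dcl2.

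Genes of splicing, photosynthesis and oxygen detoxification rose broadly but by less than 1 for nearly all members. Among 20 SR proteins, which select splice sites, 18 rose and 0 fell (median 0.46). The largest rise was that of SR45a, at 84.7, 84.4 and 82.9 FPKM in heat and 32.5, 24.9 and 28.6 FPKM in control (1.53, SE 0.18, adjusted p 2.4e-07). Of 40 nuclear photosynthesis genes tested, of 41 listed, 39 rose and 0 fell (median 0.59), and 15 of the SR genes and 37 of the photosynthesis genes rose after upper-quartile rescaling. GAPA, a glyceraldehyde phosphate dehydrogenase of the Calvin cycle, averaged 923 ± 8.0 FPKM in heat and 510 ± 40 FPKM in control (0.86). RBCS1A was listed at 0 in every library of Col-0 and in every heat library of ski2 dcl4 dcl2, so its values are not compared between genotypes. Scavengers of reactive oxygen rose in 13 of 18 cases and fell in 0 (median 0.49), such as CAT2, a leaf catalase gene, at 1001 FPKM in heat and 505 FPKM in control. After upper-quartile rescaling 12 of these scavengers rose and 2 fell. CSD2, a plastid copper/zinc superoxide dismutase, was at 51.0, 51.8 and 65.5 FPKM in heat and 89.8, 57.1 and 72.1 FPKM in control, overlapping groups (−0.36, adjusted p 0.10), a change that was called without control library 2 (−0.52, 0.030). Its heat effect was 1.39 above that in ski2 dcl4 dcl2 (SE 0.26, adjusted p 0.022), a call lost when any of 6 single libraries was left out.

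RNA decay genes, the pathway that ski2 disables in part, showed no common direction. Of 31 members, 11 rose and 9 fell (median 0.10), and after upper-quartile rescaling 6 rose and 13 fell. The decapping gene DCP1 rose to 53.5 ± 1.5 FPKM in heat, against 35.3 ± 1.4 FPKM in control (0.59), and UPF1 (AT5G47010), the helicase of nonsense-mediated decay, to 33.4 ± 1.6 FPKM in heat, against 25.6 ± 0.75 FPKM in control (0.37). The largest falls were those of the deadenylase genes CAF1a and CAF1b, which shorten poly(A) tails. CAF1b was at 2.66, 3.81 and 3.23 FPKM in heat and 37.2, 6.70 and 33.4 FPKM in control (−2.36, SE 0.36, adjusted p 6.9e-06). Control library 2 held a fraction of the other two, and without it the change was −3.11. CAF1a and CAF1b then differed in heat effect from ski2 dcl4 dcl2 (−2.96, adjusted p 0.0013, and −2.78, 1.6e-06) and from Col-0 (−2.44, 0.0095, and −2.73, 2.3e-06), which neither did with all libraries. The library left out was singled out by low values like these, so these calls are no separate support. DCP5, a decapping enhancer, fell by 0.28, which was 0.32 above its heat effect in Col-0 (adjusted p 0.015). This DCP5 call was lost with the replicate number as a block (0.14), with only the compared libraries in the fit (0.15) and after upper-quartile rescaling (0.055).

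Silencing genes fell more often than they rose. Of 27 members 25 were tested, 6 rose and 10 fell (median −0.13). RDR6 (AT3G49500), the polymerase that copies RNA into double strands, stood at 2.18, 2.54 and 2.24 FPKM in heat, against 5.71, 5.97 and 5.56 FPKM in control. The groups were separate and the change was −1.02 (SE 0.06, adjusted p 1.3e-11). In ski2 dcl4 dcl2 the values were 8.39, 7.18 and 7.58 FPKM in heat and 7.79, 8.27 and 7.81 FPKM in control, which overlapped, and in Col-0 4.93, 5.84 and 5.96 FPKM in heat and 8.30, 7.86 and 7.94 FPKM in control. The heat effect in ski2 dcl4 was lower than in ski2 dcl4 dcl2 (difference −0.98, SE 0.09, adjusted p 1.3e-06) and lower than in Col-0 (difference −0.56, SE 0.09, adjusted p 0.0044). Over all genes, 0.200% were called for the first difference and 0.372% for the second. The difference from Col-0 was not called with only the compared libraries in the fit (adjusted p 0.12) or with the replicate number as a block (0.070). AGO2, an argonaute of antiviral defence, and its relative AGO3 fell by 1.13 and 0.98, and AGO1, the main miRNA argonaute, fell by 0.38. SGS3, the RDR6 partner, rose by 0.54, SE (SERRATE, of miRNA processing) by 0.48 and RDR2, of DNA methylation, by 0.45.

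Trans-acting siRNA precursors are non-coding RNAs that a miRNA cuts before RDR6 and DCL4 act on them. The segments below are the parts of 2 precursors most complementary to messages that their siRNAs are known to target, in TAIR10.1, with pairing bases in capitals (20 of 21 for TAS3 with ETT and ARF4, 19 of 21 for TAS1A with HTT2). TAS3 lies at chr3:5862205-5862225 (plus strand), the ETT site at chr2:14325941-14325961 (minus strand), the ARF4 site at chr5:24309507-24309527 (minus strand), TAS1A at chr2:11722048-11722068 (minus strand) and the HTT2 site at chr5:5973754-5973774 (plus strand).
TAS3: TTTCTTGACCTTGtAAGACCC
ETT: GGGTCTTgCAAGGTCAAGAAA
ARF4: GGGTCTTgCAAGGTCAAGAAA
TAS1A: CCTAAGTCCAACATAGCGTtc
HTT2: tcACGCTATGTTGGACTTAGG
The 5 precursors that passed the filter, of 6 listed, fell (median −2.87). TAS3 stood at 0.689, 1.03 and 0.587 FPKM in heat, against 30.7, 31.8 and 30.8 FPKM in control (−4.19, SE 0.19, adjusted p 3.2e-14). In ski2 dcl4 dcl2 it was at 13.5, 14.3 and 10.9 FPKM in heat and 63.0, 59.5 and 58.8 FPKM in control, so the fall in ski2 dcl4 was larger by 2.04 on the log2 scale (difference −2.04, SE 0.27, adjusted p 2.9e-04). In Col-0 it was at 1.88, 1.02 and 0.844 FPKM in heat and 56.2, 60.6 and 55.2 FPKM in control. The difference from Col-0 was 0.54 (SE 0.27, adjusted p 0.43). TAS1C fell to 0.133, 0.267 and 0.135 FPKM in heat, against 6.78, 6.08 and 8.19 FPKM in control (−2.76). Its fall was smaller than in ski2 dcl4 dcl2 (difference 1.55, SE 0.15, adjusted p 1.3e-06), where control libraries held 31.2 to 33.9 FPKM, but with a pseudocount of 0.1 the difference was 0.68 (adjusted p 0.63). TAS1A fell by 3.01, TAS2 by 2.87 and TAS1B by 2.44. TAS1 and TAS2 genes resemble each other, and the strand that was counted is not given in the sources used here.

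Targets of these siRNAs fell for the most part, with ETT and HTT2 not called. Of 20 targets 17 were tested, 1 rose and 12 fell (median −0.96). ETT (also ARF3, AT2G33860), an auxin response factor of leaf polarity, was at 18.9, 19.3 and 16.9 FPKM in heat and 19.4, 21.7 and 21.6 FPKM in control (−0.18, SE 0.09, adjusted p 0.089), a change that was called after upper-quartile rescaling (−0.32, adjusted p 0.0047). In Col-0 it stood at 4.52, 4.03 and 4.41 FPKM in heat and 15.1, 14.2 and 13.9 FPKM in control. The heat effect in ski2 dcl4 was higher than in Col-0 by 1.35 (SE 0.12, adjusted p 3.2e-06). ARF4 fell to 9.65, 9.49 and 9.32 FPKM in heat, against 16.6, 14.72 and 16.0 FPKM in control (−0.67), which was 0.62 above the effect in Col-0 (SE 0.11, adjusted p 0.016), not called with the replicate number as a block (0.094). HTT2, a heat tolerance gene of the TAS1 targets, was at 21.7, 21.6 and 27.9 FPKM in heat and 25.7, 21.4 and 23.7 FPKM in control (0.00), and the effect was 1.03 above that in Col-0 (SE 0.16, adjusted p 0.0033), where it stood at 3.79, 3.43 and 3.33 FPKM in heat and 7.22, 8.78 and 8.63 FPKM in control. Pentatricopeptide repeat genes, whose proteins process organelle RNA, fell: RPF6 was at 0.852, 0.702 and 0.892 FPKM in heat and 6.17, 7.06 and 7.15 FPKM in control (−2.10, SE 0.09), and RPF3 fell by 1.57. None of the 17 differed from ski2 dcl4 dcl2, with a difference of −0.41 for ETT (adjusted p 0.20).

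**Figure D3:**
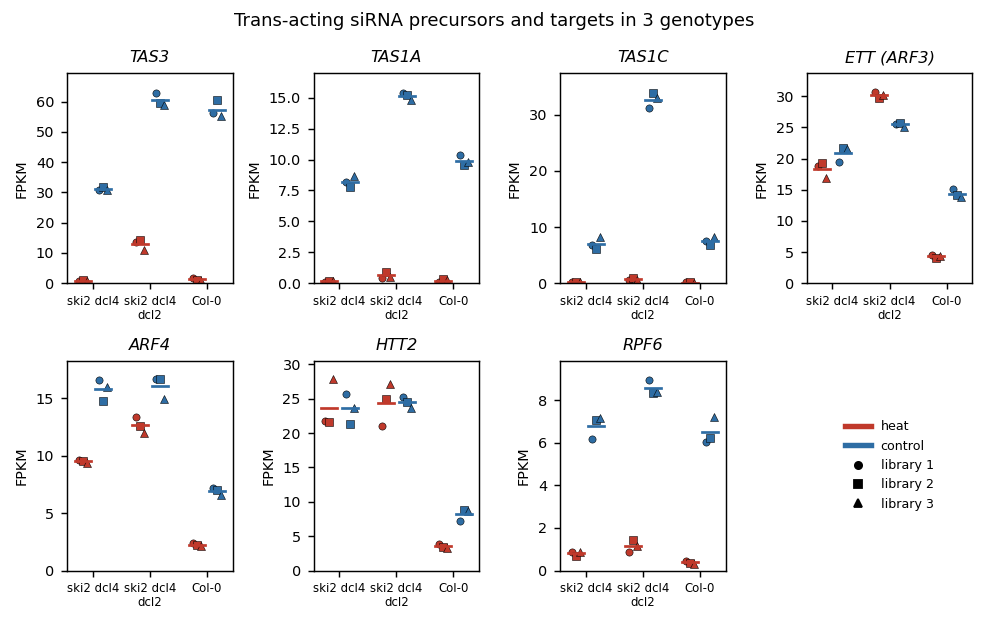
FPKM of 3 trans-acting siRNA precursors and 4 target genes in ski2 dcl4, ski2 dcl4 dcl2 and Col-0, with heat in red left of control in blue, symbols for libraries 1 to 3 and bars for means. TAS3 in heat is at 0.587 to 1.03 FPKM in ski2 dcl4 and 10.9 to 14.3 FPKM in ski2 dcl4 dcl2; ETT in heat is at 16.9 to 19.3 FPKM in ski2 dcl4 and 4.03 to 4.52 FPKM in Col-0.

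Of the messages known as sources of DCL2-made siRNAs, SMXL5, a regulator of phloem formation, fell to 3.78 ± 0.45 FPKM in heat, against 6.30 ± 0.47 FPKM in control (−0.61, SE 0.09, adjusted p 3.3e-06). Its partner SMXL4 was at 1.44, 1.46 and 0.724 FPKM in heat and 1.70, 1.49 and 1.71 FPKM in control (−0.27, adjusted p 0.050), and was called under 6 alternatives, among them without control library 2 (−0.31, 0.049). The nitrate reductase gene NIA2 was at 256, 172 and 172 FPKM in heat and 187, 219 and 193 FPKM in control, which overlapped (−0.02, SE 0.14, adjusted p 0.90). NIA1, the other nitrate reductase gene, was at 118, 111 and 75.9 FPKM in heat and 102, 119 and 94.9 FPKM in control (−0.07, adjusted p 0.79). In Col-0 NIA1 stood at 301, 280 and 321 FPKM in heat and 144, 153 and 133 FPKM in control, and NIA2 at 473 to 713 FPKM in heat and 338 to 377 FPKM in control. The heat effects in ski2 dcl4 lay below those in Col-0 by differences of −1.13 for NIA1 (SE 0.26, adjusted p 0.055) and −0.79 for NIA2 (SE 0.19, adjusted p 0.071), and neither was called. Without heat library 1 both were called (−1.25, adjusted p 0.046, for NIA1 and −0.98, 0.013, for NIA2), and NIA2 also without Col-0 heat library 2 (0.012). Differences from ski2 dcl4 dcl2 were −0.90 for NIA1 and −0.63 for NIA2, neither called, and that of NIA2 was called under 1 alternative. Of the 4 messages, 2 rose and 1 fell in Col-0, and likewise in ski2 dcl4 dcl2. With all libraries, 0 of the 4 differed in heat effect from either genotype.

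HD-ZIP III factors, which set vascular pattern and the upper side of leaves, included 3 genes, HB-8, PHB and REV, whose heat effect differed from that in both other genotypes. They share a site for miR165 and miR166, printed here because the genes that carry it, other than CNA, differed in heat effect from Col-0. Whether these miRNAs had a part in the differences was not tested. The miRNAs are written 5′ to 3′ from RefSeq with the seed (bases 2 to 8, the same in both) in capitals, and the sites with the bases that pair with miR166a in capitals.
miR165a-3p: tCGGACCAggcttcatccccc
miR166a-3p: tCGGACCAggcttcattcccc
HB-8: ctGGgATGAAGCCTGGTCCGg
PHB: ttGGgATGAAGCCTGGTCCGg
REV: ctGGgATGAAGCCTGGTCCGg
PHV: ttGGgATGAAGCCTGGTCCGg
CNA: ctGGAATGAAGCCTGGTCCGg
Against miR166a, CNA paired at 18 of 21 bases and the other sites at 17. The inner base behind this, A in CNA and g in the others, pairs with miR165a in the others and not in CNA. All 5 sites span an exon junction in TAIR10.1, for HB-8 chr4:15866872-15866974 and for PHB chr2:14642530-14642666 (both minus strand). In the list of HD-ZIP III and xylem genes, 16 of 17 were tested, 1 rose and 11 fell (median −0.44, and −0.19 in Col-0). In whole seedlings, fewer cells of a type and less RNA per cell cannot be told apart. HB-8 (AT4G32880), a factor of procambium and xylem, stood at 1.70, 2.84 and 1.48 FPKM in ski2 dcl4 heat libraries, against 9.86, 10.9 and 11.0 FPKM in control. The groups were separate and the change was −1.97 (SE 0.11, adjusted p 1.0e-12). In ski2 dcl4 dcl2 HB-8 was at 10.4, 10.7 and 9.88 FPKM in heat and 12.7, 12.3 and 12.4 FPKM in control, and in Col-0 at 8.86, 8.46 and 9.28 FPKM in heat and 11.0, 13.0 and 11.4 FPKM in control. All 3 ski2 dcl4 heat libraries were thus below every other library of these genotypes. The heat effect differed from that in ski2 dcl4 dcl2 by −1.72 (SE 0.15, adjusted p 7.9e-07) and from that in Col-0 by −1.60 (SE 0.15, adjusted p 3.2e-06), and both differences were called under every alternative tried.

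PHB, REV and PHV, which act in leaf polarity, fell in ski2 dcl4 too. PHB was at 3.00, 3.90 and 2.63 FPKM in heat and 11.2, 12.6 and 12.9 FPKM in control (−1.67, SE 0.10). REV was at 3.14, 3.15 and 3.10 FPKM in heat and 8.52, 8.81 and 8.70 FPKM in control (−1.23, SE 0.08), and PHV at 3.90, 3.87 and 3.80 FPKM in heat and 6.54, 6.81 and 6.78 FPKM in control (−0.67, SE 0.07). All heat libraries were below all control libraries for these 3 genes, as for 25.0% of all genes tested. Differences in heat effect from ski2 dcl4 dcl2 were −0.92 for PHB (adjusted p 0.0048), −0.79 for REV (0.0014) and −0.37 for PHV (0.14, not called). The PHB call was lost with only the compared libraries in the fit (0.068), and PHV was called without ski2 dcl4 dcl2 heat library 1 (0.048). Differences from Col-0 were −0.73 for PHB (0.026), −0.62 for REV (0.016) and −0.58 for PHV (0.0076). The calls against Col-0 were lost with the replicate number as a block for PHB and REV (0.094 each), with only the compared libraries in the fit for PHB and PHV (0.15 and 0.084), and when any of 6 single libraries was left out for PHB. CNA (annotated as ATHB-15), the other member, fell by 1.07 with differences of −0.10 from ski2 dcl4 dcl2 and 0.01 from Col-0, neither called. Of the xylem genes, the laccase genes LAC4 and LAC17 fell by 1.11 each, LAC4 to 3.54 FPKM in heat, against 8.83 FPKM in control, and LAC17 to 2.29 FPKM in heat, against 6.12 FPKM in control. XCP1, a vessel protease gene, fell by 0.19, below its effect in Col-0 (difference −0.46, adjusted p 0.027), but that difference was not called when any of 6 single libraries was left out. Cellulose synthase genes of the secondary wall moved little, such as CESA4 at 2.97 FPKM in heat and 3.60 FPKM in control.

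**Figure D4:**
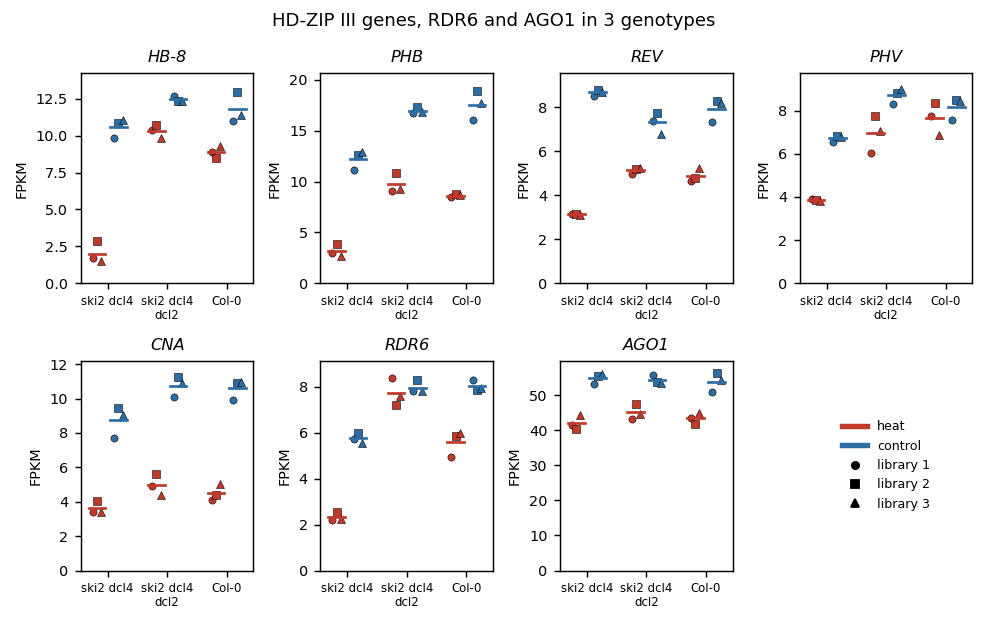
FPKM of the 5 HD-ZIP III genes, RDR6 and AGO1 in ski2 dcl4, ski2 dcl4 dcl2 and Col-0, with heat in red left of control in blue, symbols for libraries 1 to 3 and bars for means. HB-8 in ski2 dcl4 heat libraries, at 1.48 to 2.84 FPKM, lies below all other libraries shown for it, while CNA falls in all 3 genotypes.

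Early stress transcription factors, which respond to touch, cold and wounding within minutes, were lower after heat. Of 22, 0 rose and 14 fell (median −1.55, and −0.84 in Col-0). CBF2 (AT4G25470), a cold response factor, was at 1.94, 4.16 and 3.20 FPKM in heat and 72.8, 11.2 and 56.5 FPKM in control. All heat libraries were below all control libraries, but control library 2 was far below the other control libraries. The change was −3.22 (SE 0.59, adjusted p 6.9e-05), and without control library 2 it was −4.03. ZAT10, a zinc finger repressor, was at 14.2, 18.7 and 19.0 FPKM in heat and 172, 31.2 and 136 FPKM in control (−2.33, SE 0.45). ERF5, an ethylene response factor, was at 4.102, 5.28 and 5.33 FPKM in heat and 48.6, 10.9 and 40.5 FPKM in control (−2.31, SE 0.36). Without control library 2 the changes were −3.08 for ZAT10 and −2.95 for ERF5. Without it, 17 of the 22 fell (median −2.20), and 10 members fell more than in ski2 dcl4 dcl2 and 6 more than in Col-0, against 0 in each case with all libraries. Over all genes, 258 and 252 were then called for these differences. Control library 2 was singled out by its values in genes of this kind, so calls made without it are no separate support. The count of falls was 12 without control library 1 (median −1.25), control library 3 (−1.19) or heat library 2 (−1.68). With only the compared libraries in the fit, 10 fell and 1 rose.

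**Figure D5:**
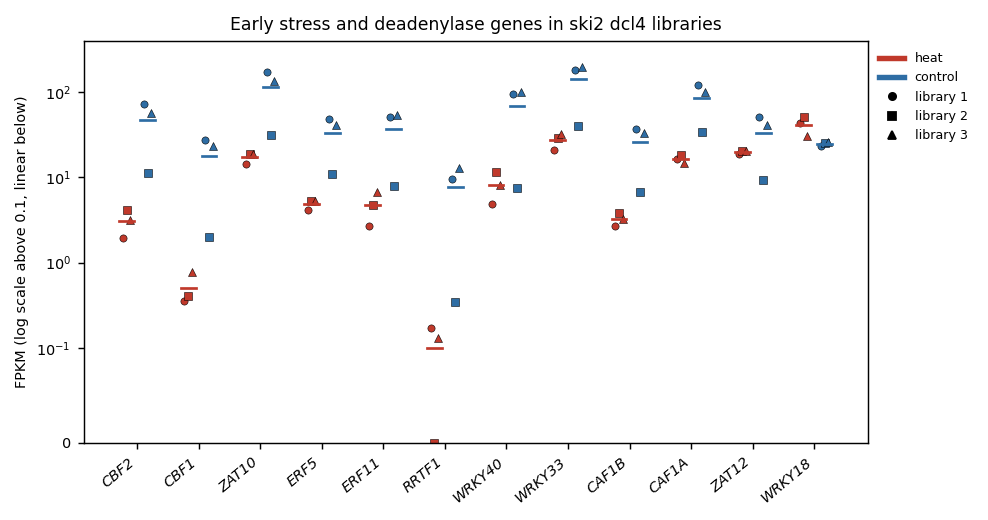
FPKM of 10 early stress transcription factors and the deadenylase genes CAF1A and CAF1B in each ski2 dcl4 library (log scale above 0.1, linear below), with heat in red left of control in blue, symbols for libraries 1 to 3 and bars for means. Control library 2 (square) lies below control libraries 1 and 3 for CBF2, at 11.2 FPKM beside 72.8 and 56.5 FPKM, and likewise for the other genes shown except WRKY18.

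Genes of abscisic acid and drought were divided: of 29, 11 rose and 8 fell (median 0.14), and without control library 2, 7 rose and 9 fell. Leaving out control library 1 or 3 left 4 that fell, and heat library 1 or 2 left 5. RAB18 (AT5G66400), a dehydrin, stood at 3426, 2962 and 5546 FPKM in heat, against 1667, 1092 and 1634 FPKM in control. The groups were separate, with a change of 1.41 (SE 0.32, adjusted p 7.6e-04). In ski2 dcl4 dcl2 RAB18 was at 34.6 to 52.0 FPKM in heat and 19.6 to 28.9 FPKM in control, and in Col-0 at 22.5 to 34.0 FPKM in heat and 13.0 to 19.9 FPKM in control, so its level in ski2 dcl4 control libraries was already above every library of both. The late embryogenesis gene EM6 (AT2G40170) rose by 1.49, and RD29B was at 374, 327 and 672 FPKM in heat and 256, 144 and 204 FPKM in control (1.14, adjusted p 0.019), a call lost without control library 2 (0.92, 0.087) or heat library 3 (0.83, 0.11). The abscisic acid hydroxylase gene CYP707A3, which removes the hormone, fell to 4.16, 5.08 and 4.44 FPKM in heat, against 39.5, 9.34 and 45.01 FPKM in control (−2.27). Without control library 2 the CYP707A3 change was −2.96, and its heat effect differed from that in ski2 dcl4 dcl2 (−1.74, adjusted p 0.032). No member differed in heat effect from either genotype with all libraries in the fit.

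Low-sugar genes rose in 12 of 18 cases and fell in 2 (median 0.64). ASN1, an asparagine synthetase gene switched on in darkness and starvation, was at 179, 126 and 132 FPKM in heat and 21.6, 64.0 and 23.61 FPKM in control, with control library 2 the highest of the controls (2.13, SE 0.32, adjusted p 6.9e-06). DIN10, another starvation marker, averaged 317 FPKM in heat and 109 FPKM in control (1.80, and 2.44 without control library 2). Phloem genes were divided, with 4 that rose and 7 that fell of 17 (median −0.07). The sucrose exporter SWEET12 fell to 12.3, 14.3 and 15.1 FPKM in heat, against 45.1, 53.7 and 46.8 FPKM in control (−1.73, SE 0.11), and the protophloem receptor gene BAM3 fell by 1.24. The sieve tube protein genes PP2-A1 and SEOR1 rose by 0.70 and 0.67. Among 15 root genes, 2 rose and 7 fell, with the root hair expansin EXPA18 at 1.91 ± 0.73 FPKM in heat and 6.44 ± 1.6 FPKM in control (−1.36). Among 23 elongation genes, 2 rose and 9 fell, led by EXPA1, at 22.5, 18.7 and 22.0 FPKM in heat and 98.0, 69.4 and 72.0 FPKM in control (−1.86, SE 0.26), while the growth regulator PIF4 rose to 206 ± 9.0 FPKM in heat, against 125 ± 16 FPKM in control (0.72). Cell cycle genes were called in 5 of 27 cases, of which 3 rose and 2 fell. These counts depend on single libraries: 9 rose and 1 fell without heat library 3, 6 and 1 without control library 3, 1 and 4 without control library 1, 1 and 3 without heat library 2, 1 and 2 without heat library 1, and 2 and 1 without control library 2. CDT1A, a licensing factor of replication, fell by 1.11.

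Among the 12 largest rises that met the rule for naming were, beside heat shock genes, the mitochondrial transcripts RRN18, at 346, 352 and 264 FPKM in heat and 2.87, 2.78 and 3.28 FPKM in control, NAD5C and RPL16. Among the 12 largest falls were TAS3, TAS1A and a group of stress genes in which control library 2 was lowest of the controls: the mitochondrial carrier gene DIC2 at 7.75, 10.7 and 15.36 FPKM in heat and 248, 41.4 and 232 FPKM in control (−3.50), NUDT4 (−3.29), CBF2, CBF1, IDL7 and NHL3. Without control library 2 the changes were −4.34 for DIC2, −4.11 for NUDT4, −4.14 for CBF1 and −3.68 for IDL7. The germin GER3 stood at 27.0, 27.2 and 13.3 FPKM in heat and 186, 323 and 297 FPKM in control (−3.55, SE 0.34), and the myrosinase gene BGLU34 at 0.352 ± 0.065 FPKM in heat and 12.1 ± 1.5 FPKM in control (−3.28). RWA3 was listed at 0 in every heat library of the 3 genotypes and PSBK in every ski2 dcl4 heat library, and both are given only as listed.

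The heat effect in ski2 dcl4 differed from that in ski2 dcl4 dcl2 for 43 genes (0.200% of those tested), 23 with a higher and 20 with a lower effect, and from that in Col-0 for 80 genes (0.372%), 50 higher and 30 lower. Both comparisons share the ski2 dcl4 libraries. At an unadjusted p under 0.05 the counts were 2171 and 2584. Without control library 2, 258 and 252 were called at adjusted p under 0.05. CSAP (AT5G39520), named here by its annotated symbol, was at 7.31, 7.34 and 9.51 FPKM in heat and 2.95, 2.51 and 2.46 FPKM in control. This effect was above that in ski2 dcl4 dcl2 by 1.34 (SE 0.17, adjusted p 1.9e-04) and above that in Col-0 by 1.28 (SE 0.17, adjusted p 4.7e-04). Neither difference was called at a pseudocount of 0.1. CSAP was low in both other genotypes, with means of 0.111 FPKM in heat and 0.143 FPKM in control in ski2 dcl4 dcl2. In Col-0 these means were 0.243 and 0.219 FPKM. SAUR72, of a family of auxin-induced growth genes, was at 1.96, 1.83 and 1.86 FPKM in heat and 12.3, 6.09 and 9.79 FPKM in control. Its effect was below that in ski2 dcl4 dcl2 (difference −1.51, adjusted p 0.0088) and in Col-0 (difference −1.48, adjusted p 0.0091). Neither was called when only the compared libraries were fitted (0.078 and 0.19). SAUR72 means in heat were close, at 1.885 FPKM in ski2 dcl4, 2.09 FPKM in ski2 dcl4 dcl2 and 1.77 FPKM in Col-0. The genotypes lay apart in control, at means of 9.39, 2.77 and 2.40 FPKM in the same order. UMP1B, a proteasome maturation factor by annotation, was at 73.9, 70.3 and 68.3 FPKM in heat and 52.0, 51.4 and 60.0 FPKM in control, above the effect in Col-0 by 1.40 (SE 0.18, adjusted p 4.0e-04). No heat shock factor, small heat shock protein, large chaperone or co-chaperone was among the genes called in either comparison with all libraries in the fit, which does not show that their effects were alike.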

How the data were processed

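Messenger RNA was sequenced from ski2 dcl4, ski2 dcl4 dcl2 and Col-0 seedlings with and without heat, 3 libraries a group, and groups were taken from the labels. The authors deposited a table with 1 FPKM value per gene and library for 38088 genes. That unit was read from the numbers, which are fractional and whose smallest steps fall with transcript length. Bowtie is named without a version, per the submitters' processing notes. The counter, genome build, annotation and strand setting were not given in the sources used here. Identifiers were matched to RefSeq TAIR10.1 for 37792 genes (99.2%), and printed sequences and coordinates come from that assembly, which may not be the authors' build.

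A gene was tested where 3 or more of the 30 libraries reached 1 FPKM (21531 genes), on log2(FPKM + 1), a scale that understates changes of low genes. With limma 3.58.1 (R 4.3.3), 1 model covered all 10 groups for a shared spread (20 residual degrees of freedom). These groups include 2 other genotypes, smxl4 smxl5 and smxl6 smxl7 smxl8. The fit used an intensity trend and Benjamini-Hochberg adjustment over all genes at 0.05. Contrasts were heat minus control in ski2 dcl4 and the difference of that effect from those in ski2 dcl4 dcl2 and Col-0. A count test had been planned for the case of counts and was left out, since these are FPKM. The scripts were tested on simulated data: of 100 genes changed by 1 on the log2 scale, 91 were recovered for heat, 78 for the difference from Col-0 and 79 for that from ski2 dcl4 dcl2, with 15, 6 and 6 false calls. The simulated noise was normal on the log2 scale, and far fewer genes were changed than heat changed in the data. Changed genes were drawn from those above about 5 FPKM on average, so recovery of lower genes was not tested. Alternatives were a pseudocount of 0.1, no filter, a filter of 5 FPKM, upper-quartile and median-of-ratios rescaling, only the compared libraries, a replicate block, array weights, each library left out, and a log2 threshold of 1.

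The comparison and the 28 gene lists were chosen with earlier results of these data known. The rule named SKI2, DCL4, DCL2 and HSFA2, the 12 largest rises and falls with heat among called genes with a symbol, at least 5 FPKM on average in whichever group was higher and non-overlapping libraries, up to 3 called rises and falls per list by adjusted p, and the 8 largest called differences in each direction for each genotype. Genes listed at 0 in a whole group while another group averaged at least 100 FPKM were left out of the largest changes. Other genes in the text, among them ARF4, HTT2, NIA1, NIA2, CNA, APX2, DREB2A, HSP101, ZAT10 and CAF1a, were chosen after their values were seen or as members of short lists.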

Additional observations from a re-analysis of the deposited data

Results flagged for a closer look

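The heat effect differed between genotypes by a test of the difference itself (limma interaction, adjusted p under 0.05) for the genes below. They are the largest in each direction among called genes with a symbol and a mean of at least 5 FPKM in 1 of the groups compared. Some genes without a symbol differed more, such as AT4G27654 (−3.74 from ski2 dcl4 dcl2 and −3.25 from Col-0). Against ski2 dcl4 dcl2, the heat effect in ski2 dcl4 was higher for TAS1C by 1.55, CSD2 by 1.39, CSAP by 1.34, GLYI7 by 1.21, SAUR68 by 1.14, NAC083 by 0.71, SORF31 by 0.70 and RD2 by 0.63 on the log2 scale. It was lower for TAS3 (−2.04), HB-8 (−1.72), SAUR72 (−1.51), RDR6 (−0.98), PHB (−0.92), REV (−0.79) and NANA (−0.54). At a pseudocount of 0.1 the difference for TAS1C was not called, nor was that for CSAP against either genotype. PSBK (−9.89) was listed at 0 in all ski2 dcl4 heat libraries and in all ski2 dcl4 dcl2 control libraries, and is given as listed.

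Against Col-0, the heat effect in ski2 dcl4 was higher for GLYI7 by 1.52, UMP1B by 1.40, ETT by 1.35, CSAP by 1.28, SAUR68 by 1.06, HTT2 by 1.03, PCNA2 by 0.98 and SAUR14 by 0.92. It was lower for HB-8 (−1.60), SAUR72 (−1.48), sks5 (−1.03), PHB (−0.73), NANA (−0.68), REV (−0.62), PHV (−0.58) and RDR6 (−0.56). GLYI7, of a family that detoxifies methylglyoxal, was at 15.6, 11.2 and 20.9 FPKM in ski2 dcl4 heat libraries and 5.67, 4.96 and 3.97 FPKM in control libraries. It was low in both other genotypes, with means of 0.631 FPKM in heat and 0.337 FPKM in control in ski2 dcl4 dcl2. In Col-0 these means were 0.330 and 0.339 FPKM. The GLYI7 difference from Col-0 was not called under 3 alternatives, among them a pseudocount of 0.1 (adjusted p 0.13). Its difference from ski2 dcl4 dcl2 was not called under 14 alternatives, and that of SORF31 under 13. PCNA2, the sliding clamp of DNA replication, lost its difference from Col-0 under 11, and SAUR14 under 16. Other calls against Col-0 were lost under 8 alternatives for sks5 and PHB and 6 for SAUR68, and against ski2 dcl4 dcl2 under 9 for NAC083 and PSBK, 6 for CSD2, 5 for RD2 and 4 for SAUR68 and NANA. SAUR68 and other SAUR genes have near-identical neighbours that may share reads. All ski2 dcl4 differences use the same 6 libraries, so those against both genotypes are not independent.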

How the results depend on the processing

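The 11965 calls with heat became 9883 to 13242 under other pseudocounts, filters, rescalings, library sets, the block and array weights, and 1393 (422 higher, 971 lower) with a log2 change of at least 1. The difference from ski2 dcl4 dcl2, 43 calls, became 77 with no filter, 26 with a filter of 5 FPKM, 26 with only the compared libraries and 467 with array weights. Leaving out 1 library gave 19 to 258 calls, the highest without ski2 dcl4 control replicate 2 and the lowest without control replicate 3. It gave 28 without heat replicate 1, 26 without heat replicate 3, and 22, 28 and 25 without ski2 dcl4 dcl2 control replicates 1, 2 and 3. The difference from Col-0, 80 calls, became 28 with only the compared libraries and 434 with array weights, whose estimation stopped before its tolerance was reached. Leaving out 1 library gave 45 to 252 calls: 252 without ski2 dcl4 control replicate 2, 48 without control replicate 1, 51 and 45 without control replicates 1 and 2 of Col-0, and 52 without its heat replicate 1. The cause was not tested. The labels give groups the same replicate numbers, but heat and control libraries of ski2 dcl4 with the same number did not deviate together (r −0.166, 0.0380 and −0.0568 across genes), so the numbers were not read as pairs. With the replicate number as a block there were 11525 heat calls, 17 differences from ski2 dcl4 dcl2 and 18 from Col-0. HTT2 with heat changed from 0.00 to −0.14 after upper-quartile rescaling and, with 1 library left out, to values between −0.11 (without heat replicate 3) and 0.064 (without heat replicate 2), and was not called in any of these. Medians of 5 lists (heat shock factors, RNA decay, cell cycle, clock, abscisic acid) moved from above 0 to below 0 after upper-quartile rescaling. Low genes carry the counting error of a few fragments, and 3 libraries a group limit all estimates.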

Other observations

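Some gene lists not described above are given here for ski2 dcl4, to be read beside 32.0% for rises and 23.61% for falls over all genes. Iron genes rose in 4 of 21 cases and fell in 2: the iron transporter gene IRT1 was at 4.24, 10.8 and 13.8 FPKM in heat and 32.9, 17.0 and 19.97 FPKM in control (−1.27, SE 0.42, limma adjusted p 0.014), a call lost without heat library 1 (−0.83, 0.12) or control library 1 (0.078) and with only the compared libraries (0.057). The ferritin gene FER1, which stores iron, averaged 483 FPKM in heat and 284 FPKM in control (0.72), a call lost without heat library 2 (0.076), when 1 iron gene rose. Nitrate genes rose in 3 of 14 cases and fell in 2, with the nitrate transceptor gene NRT1.1 at 55.96 FPKM in heat and 105 FPKM in control (−0.90). Clock genes rose in 3 of 20 cases and fell in 2, and flavonoid genes rose in 3 of 23 cases and fell in 6. Salicylate and defence genes rose in 2 of 14 cases and fell in 5, led by CBP60G, a calmodulin-binding factor of salicylate synthesis, at 1.81 FPKM in heat and 6.82 FPKM in control (−1.38). Of 6 mitochondrial stress genes tested, 2 rose and 1 fell: AOX1A, an alternative oxidase gene, averaged 50.1 FPKM in heat and 36.7 FPKM in control (0.45, adjusted p 0.0051), and was not called without control library 2 (0.32, 0.050). Among 6 other SMXL genes, SMXL7 rose by 0.23, and SMXL3, which acts in phloem with SMXL4 and SMXL5, and SMXL2 fell by 0.50 and 0.25. The SMXL7 call was lost under 11 alternatives and that of SMXL2 under 6.

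HSFA6A, a heat shock factor gene, stood at 29.3, 31.3 and 84.0 FPKM in ski2 dcl4 heat libraries and 72.7, 30.5 and 56.7 FPKM in ski2 dcl4 control libraries, without a call (−0.23, adjusted p 0.52), and was called without heat library 3 (−0.71, 0.015). In ski2 dcl4 dcl2 it was at 0.450 to 0.959 FPKM in heat and 1.19 to 1.55 FPKM in control, and in Col-0 at 0.211 to 0.364 FPKM in heat and 0.310 to 1.04 FPKM in control. The nuclear 18S RNA gene AT2G01010 was at 1023 to 1240 FPKM in ski2 dcl4 heat libraries and 297 to 347 FPKM in control, and in Col-0 at 251 to 305 FPKM in heat and 147 to 158 FPKM in control.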
